A study of Mus musculus with 12 samples.

Results

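Heat shock proteins and their partners are molecular chaperones, proteins that hold, fold or dismantle other proteins. The 10 genes described here are 4 members of the HSP70 family (Hspa1a, Hspa1b, Hspa5 and Hspa8), the HSP110 gene Hsph1, the J-domain gene Dnajb1, the HSP70 partner Bag3, the HSP90 gene Hsp90aa1, the chaperonin Hspd1 and the small heat shock protein Hspb1. They were taken by symbol from a table of 49585 mouse genes, all 10 were found, and 8 of them had enough counts for a test across all genes. Hspa1a and Hspa1b did not. The libraries came from C57BL/6 mice and fall into 4 groups of 3, namely sham-operated mice, which carry the 7-day label, and mice with spinal cord injury taken 3, 7 or 14 days later. Each library pooled cord from 3 animals around the lesion site, and nuclei marked with green fluorescent protein (GFP) were captured from a density gradient by an antibody on protein G beads and are labelled as microglial. Total RNA of the nuclei went through isothermal single-primer amplification before sequencing. What drives GFP, how the cord was injured, and the age and sex of the mice were not given in the sources used here.

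Chaperones work in relays. HSP70 proteins bind exposed stretches of unfolded proteins in cycles of ATP use, J-domain proteins deliver the clients and speed ATP hydrolysis, HSP110 and BAG proteins release the nucleotide, and HSP90 finishes the folding of many kinases and receptors. In the cytosol, heat and other damage free the factor HSF1, which switches on inducible chaperone genes such as Hspa1a, whereas in the endoplasmic reticulum (ER) unfolded proteins release the HSP70 protein BiP (Hspa5) from its sensors and so raise the genes of ER chaperones. Microglia are the resident macrophages of the cord and begin to divide, engulf debris and secrete proteins after injury. Nuclear RNA was sequenced, so the values follow transcripts in the nucleus.

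The DNA sites through which these stress responses are known to act are shown because the ER genes and the heat shock genes are read separately in what follows. RefSeq promoters of build GRCm38.p6 were found for 8 of the 10 members, not for Hsp90aa1 or Hspa8, and the 250 bases before each RefSeq gene start were searched on both strands. GENCODE, whose gene spans are given further on, starts some of these genes further upstream, so the printed sites of Hspa5, Hspd1 and Hsph1 lie inside a GENCODE exon. The ER stress element was searched as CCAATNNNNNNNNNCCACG, where N is any base, and 0.113% of 32851 promoters held it. Among the members it was present in Hspa5, beginning 65 bases before the RefSeq start. Of 62 other chaperone genes with a promoter sequence, 6 held it (Calr, Canx, Creld2, Dnajc3, Hsp90b1 and Pdia6). The sites of Hspa5 and of the 2 other ER chaperone genes that were higher at 3 days and hold one are printed 5′ to 3′ on the strand that reads the motif, with 5 bases on either side and the motif's fixed letters in capitals.
Hspa5, chr2:34772020-34772048, plus strand: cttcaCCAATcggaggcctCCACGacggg
Hsp90b1 first site, chr10:86705633-86705661, minus strand: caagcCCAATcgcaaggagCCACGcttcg
Hsp90b1 second site, chr10:86705528-86705556, plus strand: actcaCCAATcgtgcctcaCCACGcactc
Calr, chr8:84847070-84847098, plus strand: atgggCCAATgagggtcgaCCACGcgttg

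The heat shock element is built from GAA blocks in alternating orientation. With 3 blocks (GAANNTTCNNGAA) it stood in 0.466% of promoters and, of the members, in Hspd1, where 2 overlapping matches lie in the stretch that Hspd1 shares with its neighbour Hspe1. With 2 blocks (GAANNTTC or TTCNNGAA, letters that the 3-block motif also contains) it stood in 12.8% of promoters and in 5 of the 8 members, Hspa1a, Hspa1b, Hspb1, Hspd1 and Hsph1. The stretches around the block pairs of Hspa1a and Hspa1b, each pair beginning 104 bases before the RefSeq start, are the same in all 18 bases. These matches describe the letters only, since binding was not measured.
Hspd1, chr1:55088059-55088081, plus strand: ttctaGAAccTTCcgGAAggccc
Hspa1a, chr17:34972248-34972265, minus strand: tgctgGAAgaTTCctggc
Hspa1b, chr17:34959330-34959347, minus strand: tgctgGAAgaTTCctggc
Hsph1, chr5:149636357-149636374, minus strand: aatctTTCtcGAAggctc
Hspb1 nearer site, chr5:135887817-135887834, plus strand: gggcaGAAccTTCctggc

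Library totals ran from 4003480 to 10670804 counts, and 3-day replicate 3 was the deepest. Sham replicate 4 stood apart on component 2 of all genes (119.8, next library 26.8), and its 12 astrocyte markers summed to 6051 CPM (counts relative to the library total, scaled by TMM) against 756 and 1730 in the other sham libraries. The 12 microglial markers, all detected in every group, summed to 5646 to 7263 CPM in sham, 3839 to 4562 at 3 days, 5287 to 6684 at 7 days and 4428 to 5386 at 14 days. They were the highest of the 10 marker sums in every library except sham replicate 4, where astrocyte markers were higher. Neutrophil markers stayed at or below 13.8 CPM and T and B cell markers at or below 11.2 CPM in every library. Log2 fold changes are given ± SE. Each adjusted p-value is from the edgeR quasi-likelihood test, adjusted by Benjamini-Hochberg across 18451 genes and read at a threshold of 0.05.

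Per gene length, Hspa8 was the most abundant member in sham and Hspa1a and Hspa1b the least. Mean RPKM ± SD (n = 3 libraries) was 76.0 ± 12.1 for Hspa8, 37.8 ± 4.30 for Hsp90aa1 and 21.7 ± 12.5 for Hspa5. Hspd1 followed at 18.3 ± 4.45 and Hsph1 at 13.9 ± 1.82 RPKM. Bag3 stood at 7.22 ± 3.79 and Dnajb1 at 3.65 ± 1.68 RPKM, and Hspb1, Hspa1a and Hspa1b lay at 0.505 ± 0.247, 0.103 ± 0.0344 and 0.0673 ± 0.117 RPKM. The wide range of mean ± SD of Hspa5 overlapped those of Hsp90aa1, Hspd1, Hsph1 and Bag3. The ranges of Hspd1 and Hsph1, of Bag3 and Dnajb1, and of Hspa1a and Hspa1b overlapped as well, so the order within all these pairs is not resolved. At 3 days Hspa5 stood second at 61.1 ± 8.20 RPKM, behind Hspa8 at 87.5 ± 1.63 and ahead of Hsp90aa1 at 36.4 ± 6.80.

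**Figure D1:**
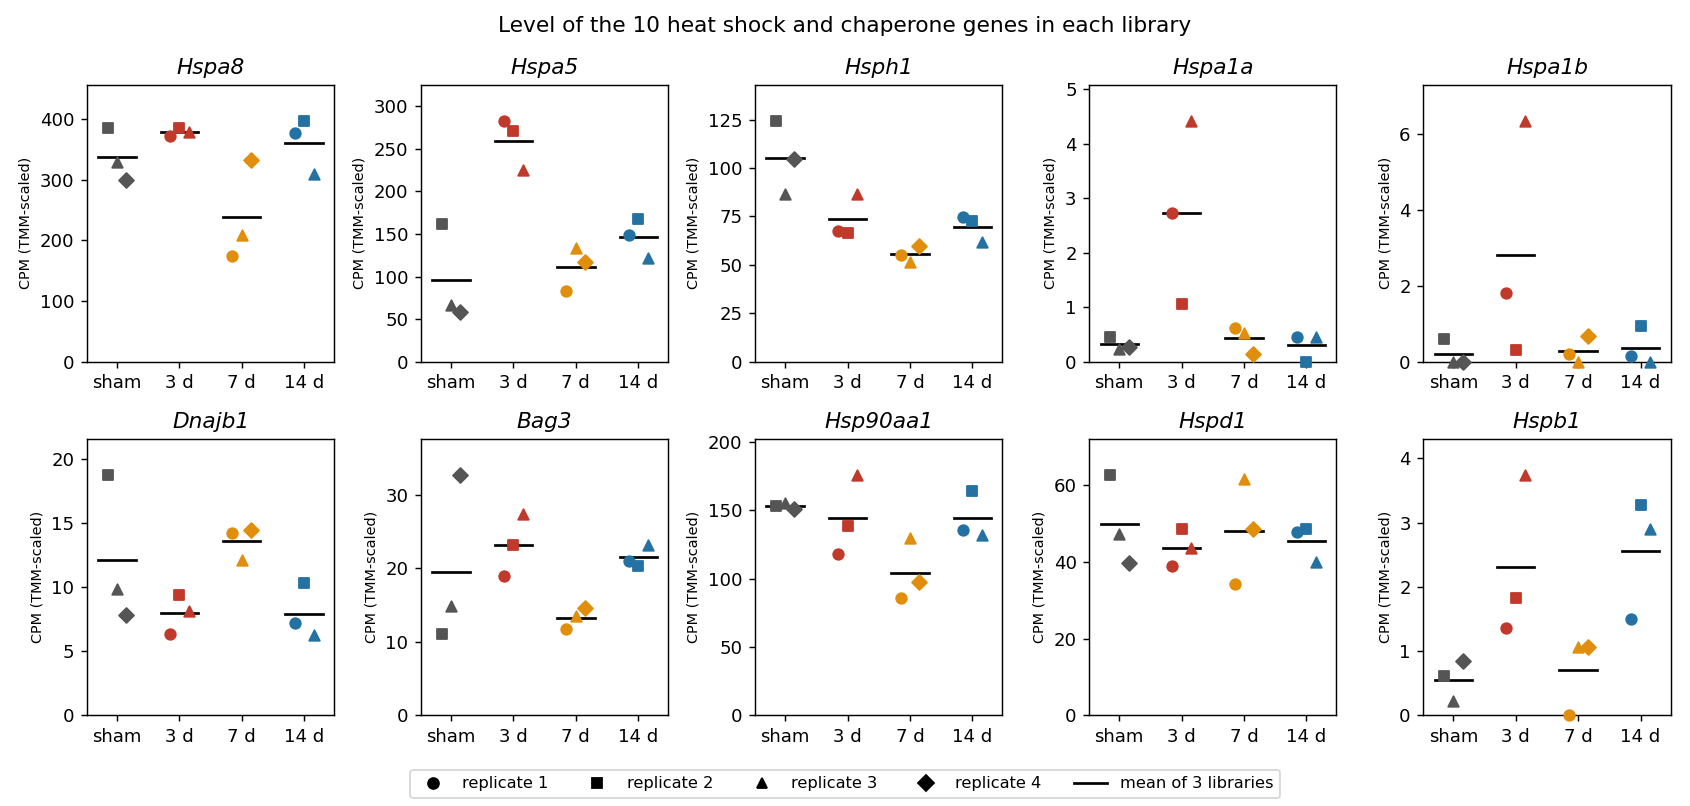
Level of each of the 10 genes in each library, in TMM-scaled CPM on a linear axis that starts at 0, by group; symbols mark the replicate number and lines the mean of 3 libraries. Hspa5 at 3 days (225 to 283 CPM) lies above every other library, Hsph1 is highest in sham, and Hspa1a and Hspa1b are highest in 3-day replicate 3 (4.42 and 6.34 CPM).

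The ER gene changed most clearly. At 3 days against sham, 1 of the 8 tested members was higher, Hspa5, and 0 were lower, where 10.9% of all genes were higher and 9.17% lower. At an unadjusted p under 0.05, Hspa5 and Hspb1 were above sham and Hsph1 below it. Hspa5 encodes BiP, the HSP70 protein of the ER (GRCm38 chromosome 2, 34771970 to 34777547, plus strand, 7 exon blocks). Its level was 162, 66.8 and 57.9 CPM in sham replicates 2, 3 and 4, and 283, 271 and 225 CPM in 3-day replicates 1, 2 and 3. At 7 days replicates 1, 3 and 4 had 83.4, 133 and 117 CPM, and at 14 days replicates 1, 2 and 3 had 148, 168 and 122 CPM. All 3 libraries at 3 days were above all 9 others, and sham replicate 2 was the only sham library within the range of the 14-day libraries. Hspa5 rose by 1.43 ± 0.31 at 3 days against sham on the log2 scale (edgeR adjusted p = 0.00539). The call held under all 14 alternative settings, with values from 1.14 without sham replicate 4 to 2.03 without sham replicate 2.

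From 3 to 7 days 2 members fell, Hspa5 and Hspa8, and 0 rose, where 7.52% of all genes fell and 5.85% rose. At an unadjusted p under 0.05 there were 7 of the 8, with Hspa5, Hspa8, Hsph1, Hsp90aa1, Hspb1 and Bag3 lower and Dnajb1 higher at 7 days. Hspa5 fell by 1.22 (SE 0.31, edgeR adjusted p = 0.0198), with all 7-day libraries below all 3-day libraries. That call ended when any 1 of the 3-day libraries was left out (adjusted p = 0.0569, 0.0509 and 0.0579 without replicates 1, 2 and 3) or 7-day replicate 1 (0.0935). From 3 to 14 days the value was -0.83 ± 0.31 (edgeR adjusted p = 0.117), again with no overlap between the groups. It passed when the fit held only those 6 libraries (adjusted p = 0.000718) and with no filter on low counts (0.00234). Against sham Hspa5 stood at 0.21 ± 0.31 at 7 days (edgeR adjusted p = 0.689). At 14 days it stood at 0.60 ± 0.31 (edgeR adjusted p = 0.231, and 0.0306 with no filter on low counts). Without sham replicate 2, the library with the highest Hspa5 in sham, these were 0.83 (adjusted p = 0.0201) and 1.21 (adjusted p = 0.00421). Across the 4 groups Hspa5 and Hsph1 passed the test of any difference (edgeR adjusted p = 0.0103 and 0.0108), 2 of 8 members against 26.4% of all genes.

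Marker lists of other cell types also moved at 3 days and from 3 to 7 days. The 11 markers of monocyte-derived macrophages summed to 88.0 to 145 CPM in sham, where F10 was at 0, 1225 to 1887 at 3 days, 245 to 612 at 7 days and 717 to 842 at 14 days. Fn1 made up most of the 3-day sum, with a mean of 1071 CPM against 36.3 for the sham group. Ly6c2 and F10 averaged only 1.25 and 2.57 CPM among the 3-day libraries, so the sum mainly follows Fn1. Of 8 macrophage markers with enough counts, 6 rose at 3 days and 4 fell from 3 to 7 days. Beside the same shares, 11 of 12 endothelial markers rose at 3 days (median 2.60) and 11 fell from 3 to 7 days (median -3.77). Their sums were 94.9 to 318 CPM in sham, 317 to 754 at 3 days, 83.1 to 99.8 at 7 days and 435 to 456 at 14 days. The part of these cells in the results on Hspa5 and on the ER folding genes described next was not tested. In libraries of pooled nuclei, fewer cells of a type and less RNA per cell cannot be told apart. No 50-base window of the longest coding Hspa5 transcript occurs in another annotated gene. Its other transcripts were not checked.

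A list of 10 further ER folding genes contained 4 that rose at 3 days and 0 that fell, where 10.9% of all genes were higher and 9.17% lower. All 10 had positive values, with a median of 0.74 against -0.03 over all genes. Hyou1, the ER relative of HSP110 that frees nucleotide from BiP, rose by 1.53 ± 0.25 (edgeR adjusted p = 0.00071) from 36.8 to 106 CPM. Calr, the lectin chaperone calreticulin, rose by 1.40 ± 0.26 (edgeR adjusted p = 0.00199) from 48.7 to 129 CPM. The disulfide isomerases Pdia4 and P4hb rose by 0.82 ± 0.26 and 0.76 ± 0.25 (edgeR adjusted p = 0.0383 and 0.0455). In each of these 4 genes the 3 libraries at 3 days lay above the 3 sham libraries. Without sham replicate 3, or without any single 3-day library, 2 of the 10 passed, and 3 passed without sham replicate 4, while Hyou1 and Calr kept their call under all 14 settings. Pdia4 lost its call without sham replicate 2 or 3 or any of the 3-day libraries, and P4hb without sham replicate 3 or 4 or any of the 3-day libraries.

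Family lists held a further pair of ER genes that rose at 3 days. Hsp90b1, the HSP90 of the ER, rose by 0.82 ± 0.23 (edgeR adjusted p = 0.0208) from 337 to 594 CPM, and the call ended without sham replicate 3 or 3-day replicate 2 (adjusted p = 0.0714 and 0.104). Dnajb11, the J-domain partner of BiP, rose by 1.10 ± 0.33 (edgeR adjusted p = 0.0308), and its call ended without sham replicate 3 (adjusted p = 0.0723) or any 3-day library (0.0536, 0.134 and 0.0589 without replicates 1, 2 and 3). Of the 7 genes with an ER stress element, Hspa5, Hsp90b1 and Calr rose. Pdia6 stood at 0.71 ± 0.33 (edgeR adjusted p = 0.137), and Creld2, Canx and Dnajc3 at 0.16 ± 0.39, 0.12 ± 0.16 and 0.12 ± 0.17 (edgeR adjusted p = 0.804, 0.645 and 0.665). Hyou1, which rose furthest, was not among the genes with the element in this window.

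**Figure D2:**
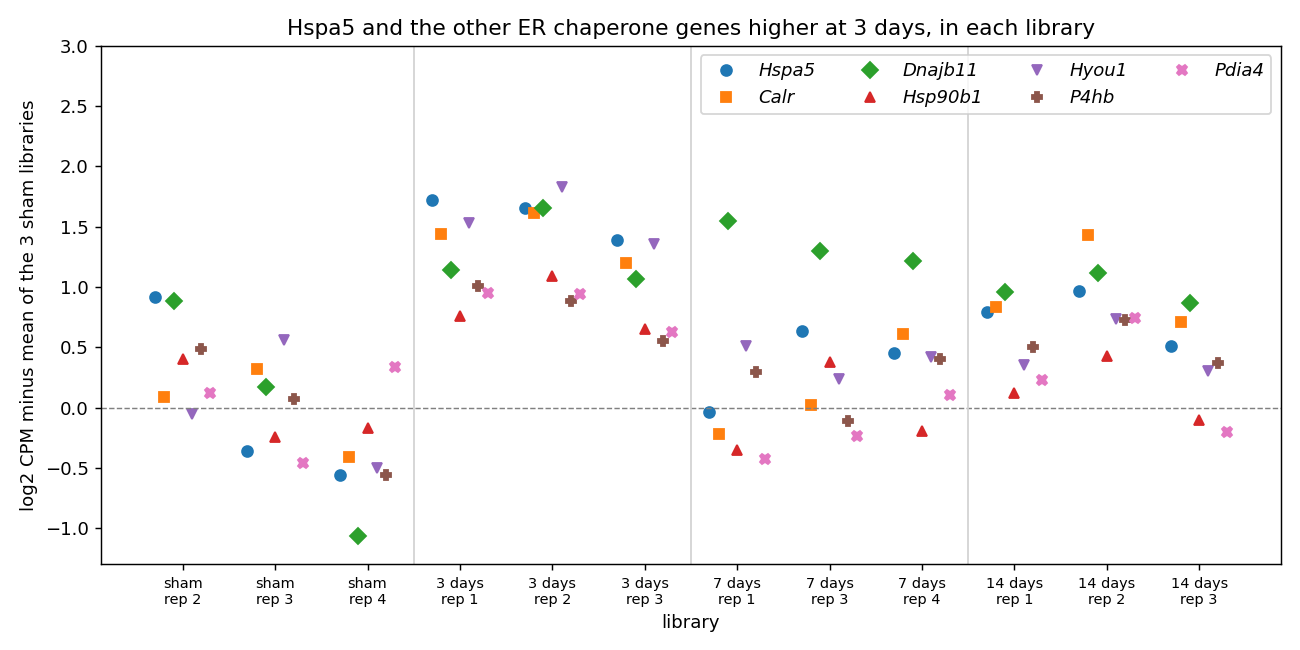
Log2 CPM of Hspa5 and the 6 other ER chaperone genes that were higher at 3 days, a set drawn together after its values were seen, in each of the 12 libraries after subtracting the gene's sham mean. At 3 days the lowest of the points is 0.56 (P4hb in replicate 3). At 7 days Dnajb11 lies between 1.21 and 1.55, above the other 6 genes in each library.

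From 3 to 7 days the same list of 10 ER folding genes held 3 that fell and 0 that rose, where 7.52% of all genes fell and 5.85% rose. Hyou1 fell by 1.20 (SE 0.24, edgeR adjusted p = 0.00704), Calr fell by 1.25 (SE 0.26, edgeR adjusted p = 0.00756) and Pdia4 fell by 1.02 (SE 0.26, edgeR adjusted p = 0.0204). Hsp90b1 fell by 0.87 (SE 0.23, edgeR adjusted p = 0.0226). The falls of Hyou1, Calr, Pdia4 and Hsp90b1 were not followed through the other settings. Over all genes 2466 were called from 3 to 7 days, 564 without 3-day replicate 3 and 954 without 7-day replicate 1. At 14 days against sham 1 of the 10, Calr, was higher (1.00 ± 0.26, edgeR adjusted p = 0.0246), where 5.02% of all genes were higher. That call ended without 14-day replicate 1 or 2 (adjusted p = 0.053 and 0.13) and in a fit of only the 14-day and sham libraries (0.0658). Of 7 genes for sensors and factors of the stress responses, 0 passed in edgeR or in DESeq2 at 3, 7 or 14 days against sham. At an unadjusted p under 0.05 the counts were 0, 0 and 1. The 2 with the highest CPM averaged over the 4 groups were the ER sensor gene Atf6 and the heat shock factor gene Hsf1, which at 3 days stood at -0.32 ± 0.16 and 0.47 ± 0.24 (edgeR adjusted p = 0.176 and 0.186).

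Hsph1 moved the other way. It encodes HSP110, which releases nucleotide from cytosolic HSP70 (GRCm38 chromosome 5, 149614287 to 149636376, minus strand, 19 exon blocks), and no 50-base window of its longest coding transcript occurs in another annotated gene. It was the 1 member of 8 that was lower at 7 days against sham, with 0 higher, where 4.67% of all genes were lower and 4.61% higher. Its level was 124, 86.64 and 105 CPM in sham replicates 2, 3 and 4, and 67.6, 66.3 and 86.56 CPM in 3-day replicates 1, 2 and 3. At 7 days replicates 1, 3 and 4 had 54.9, 51.6 and 59.9 CPM, and at 14 days replicates 1, 2 and 3 had 74.6, 72.5 and 61.7 CPM. Every one of the 9 injured libraries lay below the 3 sham libraries, although 3-day replicate 3 and sham replicate 3 nearly met.

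Hsph1 fell by 0.92 at 7 days against sham (SE 0.18, edgeR adjusted p = 0.00747). The call held in 13 of 14 settings and ended when the fit held only those 6 libraries (adjusted p = 0.0775). The 3-day value was -0.52 ± 0.18 (edgeR adjusted p = 0.0578). The 14-day value was -0.60 ± 0.18 (edgeR adjusted p = 0.0517). Both passed in 4 of 14 settings, among them DESeq2 (adjusted p = 0.0304 and 0.0233), and without sham replicate 3 (0.025 and 0.0311) or sham replicate 4 (0.0484 and 0.0401). At 14 days against sham 0 of the 8 members passed in edgeR, where 5.02% of all genes were higher and 4.79% lower. There Hsph1 and Hspb1 had unadjusted p-values under 0.05, and DESeq2 called 1 member, Hsph1. The difference between 7 and 3 days in Hsph1 was -0.41 ± 0.18 (edgeR adjusted p = 0.146).

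Neuronal markers were also lower after injury. The 12 of them summed to 1640 to 3302 CPM in sham, 721 to 896 at 3 days, 912 to 1224 at 7 days and 1153 to 1670 at 14 days, with none at 0 in any group. Of these 12 markers 10 fell at 3 days, 6 at 7 days and 3 at 14 days, where 9.17%, 4.67% and 4.79% of all genes were lower. Other lists also held genes that fell at 7 days, with 5 of 12 oligodendrocyte markers (median -0.84), 3 of 12 astrocyte markers (median -0.76) and 2 of 12 endothelial markers. At 3 and 14 days 2 and 1 oligodendrocyte markers fell, whereas 0 astrocyte markers fell and 2 and 4 rose. The part of any of these cell types in the Hsph1 result was not tested.

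**Figure D3:**
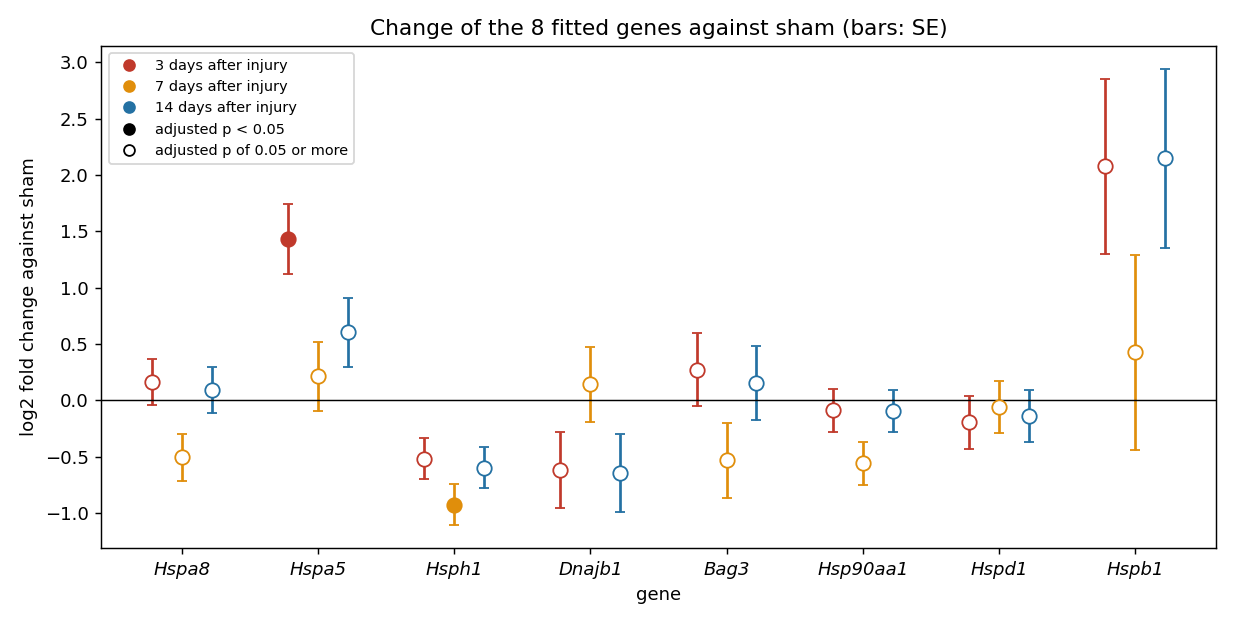
Log2 fold change against sham of the 8 tested genes at 3, 7 and 14 days, with bars for the SE and filled points for an adjusted p under 0.05. The filled points are Hspa5 at 3 days (1.43) and Hsph1 at 7 days (-0.92). Hspb1 has the highest values at 3 and 14 days and the widest bars.

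Of 10 identifiers of HSP70 and HSP110 relatives (9 symbols, with 2 identifiers under Hspa14), 1 rose and 2 fell at 3 days, counts too small to set apart from the 10.9% and 9.17% of all genes that were higher and lower. Hspa4l, a second HSP110 relative of the cytosol, fell by 0.91 at 3 days (SE 0.23, edgeR adjusted p = 0.0146), by 1.26 at 7 days (SE 0.24, edgeR adjusted p = 0.00569) and by 0.98 at 14 days (SE 0.24, edgeR adjusted p = 0.0172), from 134 ± 49.1 CPM in sham to 71.2 ± 3.34, 55.6 ± 9.89 and 67.6 ± 8.21 CPM (SD, n = 3). The 14-day call ended without any single 14-day library (adjusted p = 0.0512, 0.0658 and 0.0976 without replicates 1, 2 and 3), and the 3-day call without 3-day replicate 2 (0.055). In fits of only the 2 groups compared, the calls of Hspa4l ended at 3, 7 and 14 days (adjusted p = 0.054, 0.062 and 0.0687). With the replicate number as a block they ended at 3 and 14 days (0.0703 and 0.0762). Hspa4, on the same list, was not called, and its mean was higher after injury. It was 122 ± 9.39 CPM in sham and 139 ± 12.7, 151 ± 15.2 and 133 ± 5.03 CPM at 3, 7 and 14 days (SD, n = 3). Hspa12a, a distant relative of HSP70, fell by 0.69 at 3 days (SE 0.23, edgeR adjusted p = 0.0483). It lost its call without sham replicate 2 or 3-day replicate 1 or 2. The Hspa14 identifier ENSMUSG00000051396 rose by 0.94 ± 0.29 at 3 days (edgeR adjusted p = 0.0336), a call that ended without sham replicate 4 or any 3-day library, and the second identifier stood at -0.27 (edgeR adjusted p = 0.271).

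Of 16 J-domain genes, 1 rose (Dnajb11) and 2 fell at 3 days, 1 rose (Dnajb11) and 1 fell at 7 days, and 1 rose at 14 days, near the shares over all genes (9.17% lower at 3 days and 4.67% at 7 days). Dnaja1, a main J-domain partner of Hspa8 in the cytosol, fell by 0.83 at 3 days (SE 0.21, edgeR adjusted p = 0.0138) and by 0.95 at 7 days (SE 0.21, edgeR adjusted p = 0.0146), from 184 ± 24.6 CPM in sham to 103 ± 3.94 and 95.2 ± 32.7 CPM (SD, n = 3). Its 3-day call ended without 3-day replicate 2 (adjusted p = 0.0546) and with the replicate number as a block (0.064). The 7-day call of Dnaja1 ended when the fit held only the 7-day and sham libraries (adjusted p = 0.106). Dnajb4 fell by 0.78 at 3 days (SE 0.24, edgeR adjusted p = 0.0352), and that call ended without sham replicate 4 or any 3-day library. Dnajb14, a J-domain protein of the ER membrane, rose at 14 days by 0.98 ± 0.16 (edgeR adjusted p = 0.00147), from 184 ± 20.6 to 362 ± 10.5 CPM, and kept this call in all 14 settings. The rise of Dnajb11 at 7 days (1.14 ± 0.33, edgeR adjusted p = 0.0437) ended without any 7-day library (adjusted p = 0.134, 0.0759 and 0.0827 without replicates 1, 3 and 4) and without sham replicate 3 or 4 (0.0896 and 0.0582).

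Dnajb1 itself is the J-domain gene that heat induces and that delivers clients to cytosolic HSP70 (GRCm38 chromosome 8, 83608193 to 83612653, plus strand). It did not pass in any comparison in the main edgeR fit of all 12 libraries. With the replicate number as a block it passed from 3 to 7 days (1.04, edgeR adjusted p = 0.0426). Its level was 18.8, 9.83 and 7.84 CPM in sham, 6.38, 9.41 and 8.17 CPM at 3 days, 14.2, 12.2 and 14.4 CPM at 7 days and 7.23, 10.3 and 6.24 CPM at 14 days, each in order of replicate number. The 7-day libraries were above all libraries at 3 and 14 days and inside the sham range, which sham replicate 2 widens. The difference between 7 and 3 days was 0.76 ± 0.34 (edgeR adjusted p = 0.14) and that between 14 and 7 days -0.79 ± 0.34 (edgeR adjusted p = 0.238).

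Hspa8 encodes HSC70, the constitutive HSP70 of the cytosol (GRCm38 chromosome 9, 40800984 to 40810087, plus strand). It measured 385, 329 and 299 CPM in sham, 371, 385 and 379 CPM at 3 days, 173, 208 and 332 CPM at 7 days and 376, 396 and 309 CPM at 14 days, in order of replicate number. The 3-day libraries lay close together, and the 7-day group was the most spread, with replicates 1 and 3 below all other libraries of the study. From 3 to 7 days Hspa8 fell by 0.67 (SE 0.21, edgeR adjusted p = 0.0446). This call ended without any 3-day library (adjusted p = 0.0909, 0.099 and 0.147 without replicates 1, 2 and 3), without 7-day replicate 1 or 3 (0.177 and 0.16) and on log2 RPKM. Against sham the values were 0.16 ± 0.21, -0.50 ± 0.21 and 0.09 ± 0.21 at 3, 7 and 14 days (edgeR adjusted p = 0.613, 0.134 and 0.813). Without 7-day replicate 4 the 7-day value was -0.86 (adjusted p = 0.0177).

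Many reads of Hspa8 could also belong elsewhere, since 74.8% of the 50-base windows of its longest coding transcript occur in other genes, mostly the pseudogene Gm15459. That pseudogene held 154 counts in all 12 libraries together against 23240 for Hspa8. The pseudogene Hsp25-ps1 held 63 against 116 for Hspb1, Gm12346 held 1057 against 9567 for Hsp90aa1, and Hspd1-ps3 held 350 against 3285 for Hspd1. Such windows made up 58.5% in Hsp90aa1, 51.6% in Hspb1, 44.8% in Hspd1 and 0.441% in Dnajb1. There were none in Bag3. The counting of reads with several matches was not given in the sources used here, so the values of Hspa8, Hsp90aa1, Hspb1 and Hspd1 are uncertain to that extent. Exons of Hspd1 and Hspe1 share 112 bases on opposite strands, and the strand setting is not given either.

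The inducible pair Hspa1a and Hspa1b, the classic heat-induced HSP70 genes, was near the limit of detection outside the 3-day group. Both are single-exon genes on the minus strand of GRCm38 chromosome 17 (34969190 to 34972156 and 34956436 to 34959238). Their coding sequences are 99.4% identical over 1926 aligned bases, and 66.3% and 62.3% of their 50-base windows occur in other genes, so their counts cannot be assigned to one or the other with certainty. Hspa1a had 3, 1 and 1 counts in sham replicates 2, 3 and 4, and 12, 7 and 46 counts in the 3-day ones. At 7 days it had 3, 3 and 1 counts (replicates 1, 3 and 4) and at 14 days 3, 0 and 2. Hspa1b had 4, 0 and 0 counts in sham, 8, 2 and 66 at 3 days, 1, 0 and 5 at 7 days and 1, 4 and 0 at 14 days. Replicate 3 held 46 of the 65 Hspa1a counts and 66 of the 76 Hspa1b counts at 3 days. It was the deepest library, but the scaled levels there were also the highest, at 4.42 and 6.34 CPM.

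In CPM, Hspa1a reached 2.73, 1.06 and 4.42 at 3 days against 0.454, 0.229 and 0.28 in sham, with no overlap. An exact two-sided permutation test over these 6 libraries gave p = 0.1, the smallest that 3 against 3 allows. For Hspa1b the 3-day levels were 1.82, 0.303 and 6.34 CPM against 0.605, 0 and 0 in sham, and the groups overlapped (exact permutation p = 0.2). A count of 0 allows up to 0.686 and 0.84 CPM in sham replicates 3 and 4, taking 3 counts as the limit and covering counting error only. When the filter on low counts was removed, edgeR gave 2.99 ± 0.89 for Hspa1a and 3.43 ± 0.91 for Hspa1b at 3 days (adjusted p = 0.00955 and 0.00251). In refits that leave out a library, these genes reach the count minimum through the 3-day group, where they are high, so such calls are not read as a result. Among the immediate early genes, which are quickly induced by many stimuli, 8 of 14 rose and 1 fell at 3 days (10.9% and 9.17% of all genes). Their 15 genes summed to 292 to 359 CPM in sham and 464 to 582 CPM at 3 days, and their part in the Hspa1a and Hspa1b values was not tested.

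Hsp90aa1 encodes the inducible HSP90 of the cytosol (GRCm38 chromosome 12, 110690605 to 110702728, minus strand). Its level was 153, 156 and 151 CPM in sham, 118, 139 and 176 CPM at 3 days, 86.1, 129 and 97.2 CPM at 7 days and 136, 164 and 132 CPM at 14 days, in order of replicate number. All 7-day libraries lay below all sham libraries, and the 3-day and 14-day groups spanned the narrow sham range. The 7-day value against sham was -0.56 ± 0.19 (edgeR adjusted p = 0.0767), and it passed in DESeq2 (adjusted p = 0.0376) and without 7-day replicate 3 (-0.75, adjusted p = 0.0347). Of 10 other genes of HSP90 and its co-chaperones, Hsp90b1 was the only one to pass in edgeR against sham, at 3 days, where 10.9% of all genes were higher. At 7 and 14 days 0 passed, with 3 and 1 at an unadjusted p under 0.05 and 1 in DESeq2 at each time.

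Bag3, a partner that couples HSP70 to small heat shock proteins and to the clearance of aggregates (GRCm38 chromosome 7, 128523616 to 128546981, plus strand), was widely spread within sham. It measured 11.1, 14.9 and 32.8 CPM in sham replicates 2, 3 and 4, 18.9, 23.2 and 27.4 CPM at 3 days, 11.7, 13.6 and 14.6 CPM at 7 days and 20.9, 20.3 and 23.2 CPM at 14 days. The 7-day libraries lay below all libraries at 3 and 14 days, whereas sham replicate 4 was the highest of all 12. Against sham Bag3 stood at 0.27 ± 0.32 at 3 days (edgeR adjusted p = 0.592), and at 0.83 (adjusted p = 0.0244) without sham replicate 4. At 7 and 14 days the values were -0.53 ± 0.33 and 0.16 ± 0.33 (edgeR adjusted p = 0.322 and 0.804), and 0.05 at 7 days without sham replicate 4. From 3 to 7 days the value was -0.80 ± 0.33 (edgeR adjusted p = 0.11, and 0.0291 when only those 6 libraries were fitted).

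Sham replicate 4 is the library whose astrocyte, neuronal, endothelial and fibroblast markers were the highest in sham, and the part of these cells in the Bag3 values was not tested. Without that library Bag3, Hspa5 and Hsph1 passed at 3 days. Of 9 exchange factors and partners of HSP70, 1 rose and 1 fell at 3 days, where 10.9% of all genes were higher and 9.17% lower. Bag6 rose by 1.29 ± 0.24 (edgeR adjusted p = 0.00178), from 61.3 ± 19.1 to 150 ± 20.3 CPM (SD, n = 3). It kept the call in all 14 settings. BAG6 shields hydrophobic stretches of newly made proteins. Bag4 fell by 0.91 (SE 0.26, edgeR adjusted p = 0.022), a call lost without 3-day replicate 2 or 3 (adjusted p = 0.0776 and 0.0599).

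Hspb1 encodes HSP27 (HSP25 in mice), a small heat shock protein that binds unfolded proteins without ATP (GRCm38 chromosome 5, 135887919 to 135889563, plus strand). Only 116 counts were assigned to it in all 12 libraries. It had 4, 1 and 3 counts in sham, 6, 12 and 39 at 3 days, 0, 6 and 8 at 7 days and 10, 14 and 13 at 14 days, in order of replicate number. In CPM these were 0.605, 0.229 and 0.84 in sham, 1.37, 1.82 and 3.75 at 3 days, 0, 1.06 and 1.07 at 7 days, and 1.51, 3.27 and 2.90 at 14 days. The 3-day and 14-day libraries were all above the sham and the 7-day libraries. The values against sham were 2.08 ± 0.78 at 3 days, 0.43 ± 0.86 at 7 days and 2.15 ± 0.79 at 14 days (edgeR adjusted p = 0.0727, 0.785 and 0.101). With limma on log2(RPKM + 1) the 3-day and 14-day values passed (adjusted p = 0.0447 and 0.0348).

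Vessel markers were among the markers lower at 7 days than at 3 and 14 days. The endothelial sums are given above with Hspa5, at most 99.8 CPM at 7 days and at least 317 CPM at 3 and 14 days. The 12 fibroblast and pericyte markers summed to 77.0 to 541 CPM in sham, 313 to 940 at 3 days, 48.8 to 164 at 7 days and 653 to 761 at 14 days, and no marker of either list was at 0 in any group. Astrocyte markers were lower at 7 days as well, with 4 of 12 lower and 0 higher from 3 to 7 days (median -1.11). From 7 to 14 days 4 of them rose and 0 fell (median 1.76). Of 8 oligodendrocyte precursor markers 2 fell from 3 to 7 days (median -0.74) and 0 rose from 7 to 14 days (median 0.52). Over all genes 7.52% fell from 3 to 7 days and 1.35% rose from 7 to 14 days. The part of any of these cell types in the Hspb1 values was not tested. Of 4 other small heat shock protein genes with enough counts, 1 rose at 14 days, where 5.02% of all genes were higher. It was Hspb8, a partner of Bag3, at 14.3 ± 1.20 CPM against 4.55 ± 2.53 in sham (SD, n = 3; 1.70 ± 0.45, edgeR adjusted p = 0.0269), and its call ended without sham replicate 2 or 3 or any 14-day library. From 7 to 14 days Hspb8 rose by 2.20 ± 0.46 (edgeR adjusted p = 0.0259), a call that was not followed through the other settings. Over all genes 404 were called in that comparison, and 1, 34 and 33 without 14-day replicates 1, 2 and 3.

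Hspd1, the mitochondrial chaperonin HSP60 (GRCm38 chromosome 1, 55077835 to 55088243, minus strand), showed no difference larger than its spread. Its level was 62.7, 47.1 and 39.8 CPM in sham, 38.9, 48.5 and 43.5 CPM at 3 days, 34.1, 61.5 and 48.5 CPM at 7 days and 47.8, 48.6 and 39.9 CPM at 14 days, and every pair of groups overlapped. The values against sham were -0.19 ± 0.23, -0.06 ± 0.23 and -0.14 ± 0.23 at 3, 7 and 14 days (edgeR adjusted p = 0.594, 0.903 and 0.751). Its co-chaperonin Hspe1, which shares its promoter, stood at -0.41 ± 0.32 at 3 days (edgeR adjusted p = 0.388). Of 9 chaperonin genes 1 passed at 3 days, where 9.17% of all genes were lower. This was Cct3, a subunit of the cytosolic ring complex, which fell by 0.81 (SE 0.22, edgeR adjusted p = 0.019), a call that ended without sham replicate 2 or 3-day replicate 3 (adjusted p = 0.054 and 0.0818).

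From 3 to 14 days 0 of 8 members passed, where 2.17% of all genes were higher and 5.14% lower, and Hspa5 alone had an unadjusted p under 0.05. DESeq2 called 0. From 7 to 14 days 0 of 8 passed, where 1.35% of all genes were higher and 0.835% lower. There Dnajb1, Hsp90aa1, Hspa8 and Hspb1 had unadjusted p-values under 0.05, and DESeq2 called 0. Without 7-day replicate 4 the Hspa8 value from 7 to 14 days was 0.96 (adjusted p = 0.0255), against 0.60 ± 0.21 with it (edgeR adjusted p = 0.139). The medians of the 8 tested members were 0.04, -0.28 and 0.00 against sham at 3, 7 and 14 days, beside -0.03, 0.01 and -0.05 over all genes. All comparisons with sham share the same 3 sham libraries.

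Over the 75 tested identifiers of 76 other chaperone genes, 8 rose and 6 fell at 3 days, 1 rose and 2 fell at 7 days, and 3 rose and 1 fell at 14 days. The 8 that rose at 3 days were Hyou1, Calr, Bag6, Dnajb11, Hspa14, Pdia4, Hsp90b1 and P4hb. The 6 that fell were Bag4, Hspa4l, Dnaja1, Cct3, Dnajb4 and Hspa12a. As shares of the 75, these are counts to be read beside the 10.9% and 9.17% of all genes given above. With each single library left out in turn the 3-day counts ran from 3 (without 3-day replicate 2) to 11 (without sham replicate 2) higher and from 1 (without 3-day replicate 2) to 10 (without sham replicate 4) lower.

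**Figure D4:**
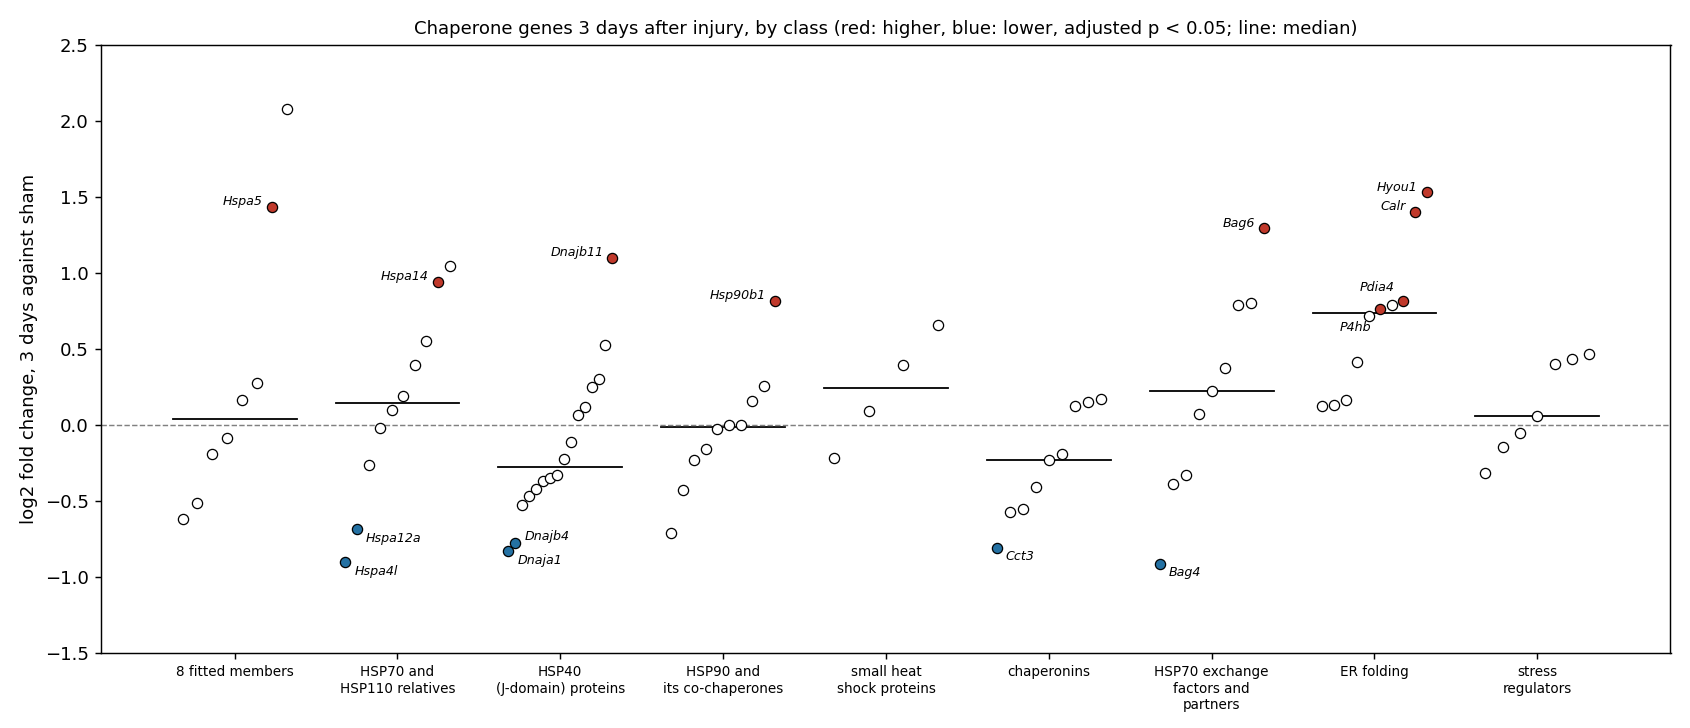
Log2 fold change at 3 days against sham of each tested chaperone gene, by class, with red points for genes that were higher and blue for genes that were lower at an adjusted p under 0.05, and a line for the median of the class. The 10 ER folding genes all lie above 0 (median 0.74). The lower genes sit in the classes of HSP70 and HSP110 relatives, J-domain proteins, chaperonins and HSP70 exchange factors and partners. These classes, apart from the chaperonins, also hold the higher genes Hspa14, Dnajb11 and Bag6.

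The genes whose log2 CPM followed each member most closely over the 12 libraries differed from member to member. For Hspa5 they were Ckap5 and Fbxo22 (Pearson r = 0.934 and 0.907), for Hsph1 Cacna2d1 and Dgkb (0.927 and 0.925), and for Bag3 Prune2 and Atl2 (0.959 and 0.957). For Dnajb1 they were Tmem147 and Cbr1 (0.956 and 0.928), for Hspd1 Psma6 and Mlh3 (0.923 and 0.896), and for Hsp90aa1 Klhl13 and Far2 (0.911 and 0.903). For Hspb1 they were Cd151 and Atl3 (0.906 and 0.903), and for Hspa8 Vwa8 and Slc22a23 (0.879 and 0.876). These are descriptions over 9425 genes with a mean of at least 10 CPM, with the members and genes with Gm, Rik or -ps names (predicted genes and pseudogenes) left out. The 12 points share library depth and the 4 groups. Among the members themselves the highest r was 0.653, between Hsp90aa1 and Hsph1, and the lowest was -0.781, between Dnajb1 and Bag3.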

How the data were processed

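The deposited tables hold a raw count (not normalized) and an RPKM for each Ensembl gene in 12 libraries. The authors counted reads with featureCounts 1.4.6-p3 on GRCm38 (mm10), per the submitters' processing notes. The aligner, strand setting and counting of multiply matching reads were not given in the sources used here. Within each gene the deposited RPKM were proportional to the count over the library total. Genes that passed filterByExpr numbered 18451 and held 99.6% of counts. After TMM scaling they entered 1 edgeR 4.0.16 (R 4.3.3) quasi-likelihood fit with a mean for each of the 4 groups, and each SE was taken as log2 fold change over the root of F. RPKM served to compare levels between genes. The p-values measure the spread between pooled libraries. The members and lists were chosen with earlier results of these data known. Besides the members, the text names up to 4 called genes a list with the smallest adjusted p (otherwise the 2 with the highest mean CPM over all groups). Also named are the 2 genes most correlated with each tested member (prior count 2, mean of at least 10 CPM, no members and no Gm, Rik or -ps names). Genes with an ER stress element, Hspa4, and Hspe1, which shares the Hspd1 promoter, were added after values were seen. Gene positions are from GENCODE and promoters from RefSeq, both on GRCm38. Other settings were size factors by median ratio, DESeq2 1.42.0, no filter or a stricter one, the replicate number as a block, fits of 2 groups alone, limma 3.58.1 on log2 of RPKM plus 1 or 0.1, and leaving out each library. The fit was tested on simulated data. Plots come from matplotlib 3.10.9 under Python 3.11.15.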

Additional observations from a re-analysis of the deposited data

How the results depend on the processing

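Each result was recomputed under 8 other settings and with each library left out. The number of members called at 3, 7 and 14 days against sham was 1, 1 and 0. It was 2, 2 and 1 with DESeq2, 3 at 3 days and 1 at 14 days with no filter on low counts, 2 and 1 with a stricter filter and with limma on log2(RPKM + 1), and 0 at 7 days in a fit of only the 2 groups compared. From 3 to 7 days the count of 2 became 4 with no filter and 1 with limma at either pseudocount. The count of 0 from 3 to 14 days became 3 with no filter and 1 in the fit of 2 groups, and that from 7 to 14 days became 1 in both. For any difference the count of 2 became 4 with DESeq2 and 6 with no filter. The no-filter counts at 3 days, from 3 to 7 and 3 to 14 days and for any difference include Hspa1a and Hspa1b. Most of the 3-day counts of these 2 genes came from replicate 3. With 1 library left out these counts ranged from 1 to 4 at 3 days, 1 to 2 at 7 days, 0 to 1 at 14 days, 0 to 2 from 3 to 7 days, 0 to 1 from 3 to 14 and from 7 to 14 days, and 2 to 7 for any difference, counting Hspa1a and Hspa1b where they reached the count minimum, which they do through the 3-day group. The call of Hspa5 at 3 days was kept in all 14 settings.

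With a replicate block, 2 members were called at 3 days (Hspa5 and Hspb1), 1 at 14 days, 4 from 3 to 7 days (Hspa5, Hspa8, Bag3 at -1.13 with adjusted p = 0.0198 and Dnajb1 at 1.04 with adjusted p = 0.0426), 1 from 7 to 14 days and 4 for any difference, and 1 other chaperone gene was lower at 3 days. Deviations of same-numbered libraries correlated at -0.298 to 0.0693. With 3 libraries a group, these values cannot decide whether the replicate numbers mark a shared batch. The sources used here do not say.

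The counts of chaperone genes at 3 days were recomputed after their values were seen. The 4 ER folding genes became 2, the 8 higher genes 3 and the 6 lower genes 1 in the fit of 2 groups, and the lower genes became 3 with limma on log2(RPKM + 1). With 1 library left out they ranged from 2 to 5, from 3 to 11 and from 1 to 10.

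Values that changed sign were all of members that had not passed. Hspd1 became 0.091 at 7 days with the replicate block, and 0.012 and 0.014 at 14 days with limma at pseudocounts of 1 and 0.1. Hsp90aa1 at 14 days became 0.030 and 0.031 in these fits, and Hspb1 at 7 days -0.18 at a pseudocount of 0.1. With 1 library left out the ranges against sham were -0.048 to 0.83, -0.83 to 0.045 and -0.15 to 0.72 for Bag3 at 3, 7 and 14 days, -0.094 to 0.61 for Dnajb1 at 7 days, and -0.28 to 0.011 for Hsp90aa1 at 3 days. They were -0.051 to 0.83 for Hspa5 and -0.019 to 0.93 for Hspb1 at 7 days, and -0.28 to 0.14 and -0.29 to 0.050 for Hspd1 at 7 and 14 days. The cause was not tested. With limma at a pseudocount of 0.1 the median of all genes at 14 days against sham moved to 0.13 from -0.05. Low counts limit Hspa1a, Hspa1b and Hspb1, and 3 libraries a group limit every call.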
